A study of Mus musculus with 15 samples.

Results

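Alveolar macrophages of beta6 null mice given TGFb1 back were compared with those of beta6 null mice without it. The comparison takes 10 of the 15 arrays of the study, 5 labelled b6-/-TGFb+/+Dox (the TGFb1 group) and 5 labelled b6-/-Dox (beta6 null), chosen by these labels alone. It was tested over 13273 of the 16132 features on the array, of which 10811 are genes with a symbol, out of 12909 such genes. The other 2859 features had values on too few arrays. Both groups lack the integrin beta6 subunit, and both received doxycycline, an antibiotic used to switch inducible transgenes. The labels describe the TGFb1 animals as reconstituted with TGF-b1. The remaining 5 arrays hold wild type macrophages (b6+/+Dox), also from mice given doxycycline. The labels name no age, strain or sex, nor the promoter or cell type that drives the transgene. Nothing in them says that each array is a separate animal, so a p-value here measures how these samples scatter, and that scatter may be technical.

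TGFb is secreted in a latent form that cannot bind its receptors. The integrin alphavbeta6, carried by lung epithelial cells, binds the latent complex and releases active TGFb beside the alveolar macrophages, the resident phagocytes of the airspaces. Active TGFb binds a pair of receptor kinases that phosphorylate Smad proteins, and Smads then enter the nucleus and bind DNA. In alveolar macrophages TGFb signalling is known to sustain Pparg, the nuclear receptor that sets their lipid-handling identity, and to restrain the elastin-degrading metalloproteinase Mmp12.

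Each value is a log2 ratio of sample to a common macrophage reference RNA, centred on the median of its array. The direction of the ratio is not stated in the labels or the table. Sample over reference is likely, since the labels put the reference in channel 1 and Mmp12 is known to be high in macrophages of this mouse, so that the sign of Mmp12 below is not separate evidence. If the ratio ran the other way, every sign below would turn. The arrays gave 13093 to 16310 values each in the TGFb1 group and 11615 to 16483 in beta6 null. The SD of the values on an array was 0.845 to 1.402 in the TGFb1 group and 0.916 to 1.998 in beta6 null. Over all features, arrays of the TGFb1 group correlated with each other at r = 0.302 to 0.492, arrays of beta6 null at 0.381 to 0.576, and arrays of different groups at 0.271 to 0.520.

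Between the TGFb1 group and beta6 null, 94 features differed. Of these, 77 were higher and 17 lower in the TGFb1 group (limma, Benjamini-Hochberg adjusted p under 0.05), which is 0.708% of all features, 0.58% higher and 0.128% lower. The called features with a symbol are 67 genes that rose and 17 that fell, and 10 called features had no symbol. The rises include the helix-loop-helix inhibitors Id3 and Id1, the oxidised lipoprotein receptor Olr1, the cytokine Il18, the fatty acid-binding protein Fabp1 and Pparg. The falls include Mmp12, the integrin subunit Itgae, the retinol carrier Rbp4, the lysosomal protein Plbd1 and the actin-binding proteins Marcks and Aif1. The median called rise was 3.54-fold and the median called fall 5.5-fold. The groups did not overlap in 93 of the 94, with Lat2 as the exception. Over all features they did not overlap in 8.26%, with the TGFb1 group above in 6.36% and below in 1.91%. An unadjusted limma p under 0.05 was reached by 1986 features (15%), of which 1475 were higher and 511 lower. The difference lay above 0 in 56.7% of all features. These shares are the scale for the counts on the gene lists below. All gene lists were put together with earlier results of these data known.

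The count of called features varied with the scale and with single arrays. Beta6 null replicates 1, 2 and 3 had wider values (SD 1.998, 1.487 and 1.619) than any TGFb1 array, while replicates 4 and 5 did not (1.105 and 0.916). When all arrays were given equal spread 11 features were called, 10 of them among the 94. Quantile normalization left 15, of which 8 were higher (53.3%, against 81.9% as reported above). Aldoc, Basp1, Eif2ak4, Fmr1, Id1, Plbd1, Plxnb2 and Tpra1 were called under both. All of the 94 kept their direction under every alternative in which they could be fitted; they were chosen as called, so this is a description and no sign of stability. Leaving out TGFb1 replicate 3 left 24 called features and leaving out TGFb1 replicate 4 left 23. Wild type replicate 2 enters the estimate of spread and the filter but not the difference, and leaving it out gave 318 of 13037 features tested. Every one of the 15 fits that left out an array called 20 of the 84 named genes, among them Olr1, Il18, Klf10, Fabp1, Plbd1 and Hal. These genes were chosen as called on the same arrays, so this too is only a description. Of the genes just named, only Plbd1 was called under both quantile normalization and equal spread.

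**Figure D1:**
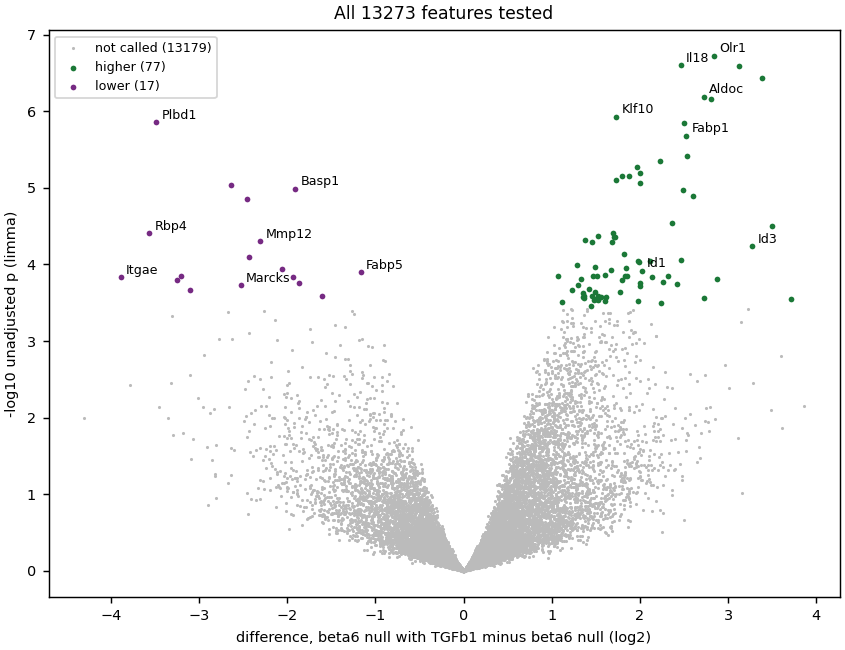
The difference between the TGFb1 group and beta6 null in log2 units (x axis) against -log10 of the unadjusted limma p (y axis) for each of the 13273 features. The 77 called rises (green) and 17 called falls (purple) lie at the upper edges, and more features lie to the right of 0 (7523) than to the left (5750).

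The Smad proteins that carry the TGFb signal bind the sequence CAGAC, whose reverse complement is GTCTG and which holds the core AGAC. Because several called genes are known targets of this pathway, the 250 bases upstream of the start site are shown for 4 genes that rose (Id3, Axl, Olr1 and Il18) and for Mmp12, which fell. They are RefSeq sequences of the assembly GRCm38.p6, read 5′ to 3′ on the strand of the gene, with CAGAC and GTCTG in capitals. Of the other genes discussed with them, Id1, Skil, Klf10, Itgae and Fabp5 are named only.
Id3, chr4:136143572-136143821, + strand: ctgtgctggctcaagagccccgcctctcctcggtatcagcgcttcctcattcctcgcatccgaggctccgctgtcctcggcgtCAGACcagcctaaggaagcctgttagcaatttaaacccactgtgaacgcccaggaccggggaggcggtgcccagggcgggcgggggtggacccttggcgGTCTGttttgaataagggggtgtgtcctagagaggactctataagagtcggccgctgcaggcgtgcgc
Axl, chr7:25788734-25788983, - strand: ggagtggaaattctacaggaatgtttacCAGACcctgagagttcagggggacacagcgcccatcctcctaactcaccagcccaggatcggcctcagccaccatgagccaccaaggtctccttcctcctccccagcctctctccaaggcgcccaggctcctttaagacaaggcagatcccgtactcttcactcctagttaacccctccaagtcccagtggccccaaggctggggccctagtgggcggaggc
Olr1, chr6:129507166-129507415, - strand: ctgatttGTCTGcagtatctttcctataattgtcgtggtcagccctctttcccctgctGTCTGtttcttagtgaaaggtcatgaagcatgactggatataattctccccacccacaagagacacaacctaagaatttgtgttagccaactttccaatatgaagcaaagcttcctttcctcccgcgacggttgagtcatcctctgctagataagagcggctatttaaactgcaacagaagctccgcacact
Il18, chr9:50554450-50554699, + strand: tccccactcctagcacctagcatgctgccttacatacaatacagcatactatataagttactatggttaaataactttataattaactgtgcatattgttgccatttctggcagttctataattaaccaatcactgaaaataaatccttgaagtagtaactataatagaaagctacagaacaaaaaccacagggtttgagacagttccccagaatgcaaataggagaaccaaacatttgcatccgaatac
Mmp12, chr9:7344147-7344396, + strand: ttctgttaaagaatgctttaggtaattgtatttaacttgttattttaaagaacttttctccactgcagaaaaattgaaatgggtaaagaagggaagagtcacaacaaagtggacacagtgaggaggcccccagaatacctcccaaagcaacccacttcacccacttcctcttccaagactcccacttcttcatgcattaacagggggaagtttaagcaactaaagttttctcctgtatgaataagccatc
The Id3 window held 2 matches, starting at -167 and -68 relative to the start site. The Axl window held 1, at -222, and the Olr1 window 2, at -243 and -192. The Il18 window held 0, and so did the Mmp12 window, taken at the most upstream start listed, which says only that these letters are not in these windows. Of all 27025 promoter windows in the table, 42.2% held at least 1 match on either strand. The share was 41.5% among the called rises in the table (22 of 53) and 30.8% among the called falls (4 of 13), so the called rises held it about as often as all windows. A match is a description of the letters and not a binding site.

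Among genes that TGFb is known to induce, Id3 had the largest rise. It encodes an inhibitor that keeps helix-loop-helix transcription factors off DNA. Id3 read 1.24, 1.6, 3.18, 2.67 and 1.99 in the TGFb1 group and -1.96, -1.77, -1.69, -0.24 and -0.03 in beta6 null. Every TGFb1 array lay above every beta6 null array, although 2 beta6 null arrays, replicates 4 and 5, lay close to 0. The difference was 3.27 ± 0.59 (SE; adjusted p = 0.0219). Its relative Id1 read 0.78, 0.90, 1.81, 1.68 and 0.48 in the TGFb1 group and -2.34, -0.85, -0.13, -0.64 and -0.50 in beta6 null, again without overlap, a difference of 2.02 ± 0.39 (SE; adjusted p = 0.0332). Klf10, the TGFb-inducible early zinc finger factor, read -0.17, -0.38, -0.34, -0.82 and -0.39 in the TGFb1 group and -2.02, -2.56, -2.16, -2.17 and -1.82 in beta6 null. Both groups were tight, and the difference was 1.73 ± 0.22 (SE; adjusted p = 0.00213). Skil, which encodes the SnoN corepressor that damps Smad activity, differed by 1.47 ± 0.31 (SE; adjusted p = 0.0438), and its 2 probes by 1.26 and 1.66. Axl, a receptor tyrosine kinase for apoptotic cell clearance that TGFb is known to induce, read -0.69, -0.93, -0.80, -0.85 and -1.39 in the TGFb1 group and -2.9, -1.93, -1.88, -1.96 and -2.14 in beta6 null and differed by 1.23 ± 0.25 (SE; adjusted p = 0.0397).

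The one called fall on the list of TGFb-induced genes was Itgae, the alphaE integrin subunit that pairs with beta7 and binds E-cadherin. It had values on only 3 arrays of the TGFb1 group. Itgae read -1.22, -1.9 and -0.53 in the 3 TGFb1 arrays with a value and 1.7, 2.9, 4.12, 1.56 and 3.08 in beta6 null, a difference of -3.89 ± 0.73 (SE; adjusted p = 0.0332), and the groups did not overlap. Of 37 genes tested on this list, 5 rose, 1 fell and 31 were not called, which is 16.2% called beside 0.708% of all features. The list was put together with earlier results of these data known, so this share is only a description. The TGFb1 group lay wholly above beta6 null in 8 (21.6%, beside 6.36%). At an unadjusted limma p under 0.05, 10 members were higher and 2 lower, beside 15% of all features in either direction. With quantile normalization and with equal spread 1 member was called in each. The median difference was -0.02, below the 0.12 of all features, and it turned to 0.08 with equal spread of the arrays. Genes on the list that were not called spread to both sides, from Id2 (1.07 ± 0.39 (SE)) and Tgfbi (1.07 ± 0.42) to Junb (-0.91 ± 0.54) and Cdkn1a (-1.31 ± 0.41).

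**Figure D2:**
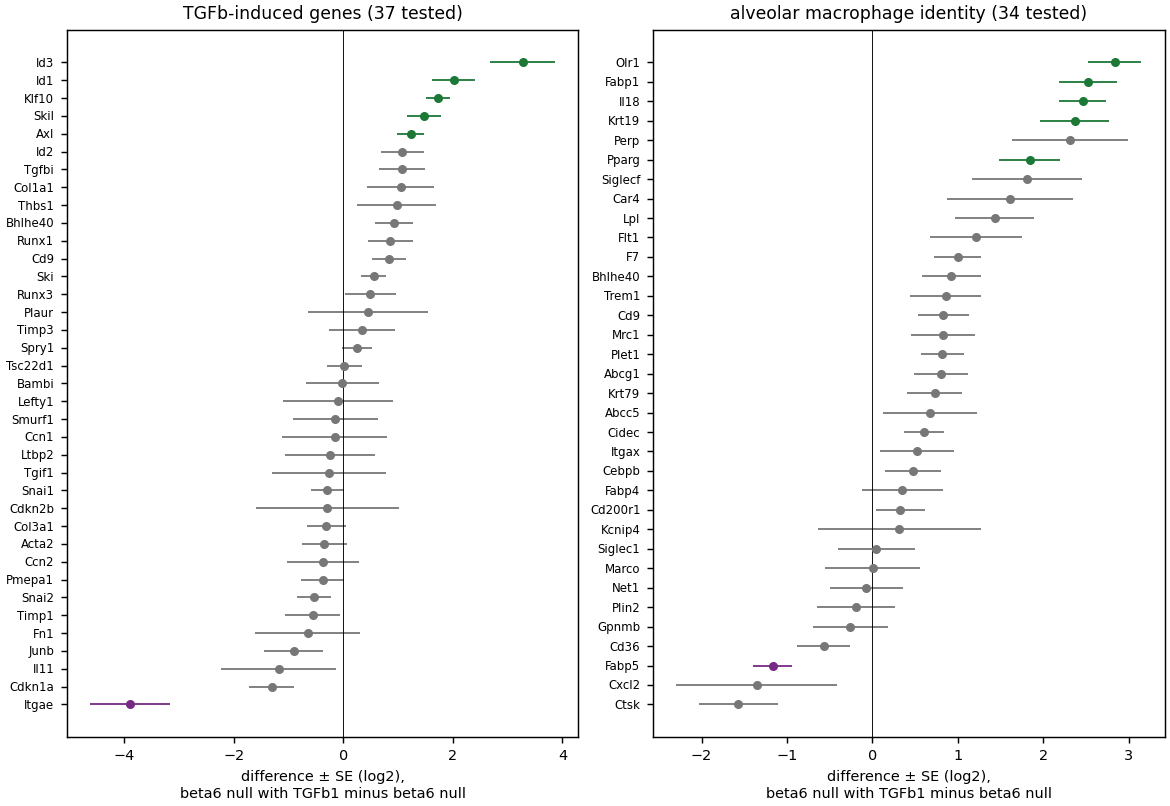
Differences between the TGFb1 group and beta6 null with their standard errors (log2, x axis) for the 37 tested genes that TGFb is known to induce (left) and the 34 tested genes of alveolar macrophage identity (right), with called rises in green and called falls in purple. On the left 18 genes lie above 0 and on the right 27 of 34 do.

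The ligands, receptors and Smads themselves were not called. Of 33 tested genes for TGFb ligands, receptors, latency proteins and Smads, 0 passed in either direction by limma, with a median difference of -0.15. Of the 33, 5 had an unadjusted p under 0.05 (3 higher and 2 lower), beside 15% of all features. Tgfb1, the ligand encoded by the transgene, read -2.21, -0.14, -0.27, -0.22 and -0.60 in the TGFb1 group and -1.96, 1.04, -2.76, 0.09 and 0.18 in beta6 null. Both groups spread widely and overlapped, and the difference was -0.0049 ± 0.95 (SE; adjusted p = 0.998). With this spread a higher Tgfb1 level in the macrophages of the TGFb1 group was not detectable, and the labels do not name the cells that express the transgene. Tgfbr2, the receptor that binds the ligand, read 0.70, -0.36, -0.23, -0.27 and -0.07 in the TGFb1 group and -1.25, -1.59, -0.85, -0.67 and -1.1 in beta6 null. The groups did not overlap, but the difference of 1.05 ± 0.50 did not pass (adjusted p = 0.343). Tgfbr1, the partner kinase, had values on only 2 beta6 null arrays and was not tested. The smallest p on the list belonged to the coreceptor Eng, at 1.3 ± 0.43 (SE; adjusted p = 0.165), and to the BMP ligand Bmp2, at -0.79 ± 0.31 (SE; adjusted p = 0.237).

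Itgb6, the disrupted gene, checks the labels only weakly here because it is an epithelial gene. It read -1.13, 1.19, 0.16, 0.06 and 0.32 in the TGFb1 group and 0.23, 0.27, 0.99, 0.61 and -0.12 in beta6 null and -0.18, 0.00, 0.42 and -0.21 on the 4 wild type arrays with a value. All 3 groups overlapped, and the difference between the TGFb1 group and beta6 null was -0.28 ± 0.38 (SE; adjusted p = 0.787). Its partner Itgav differed by -0.18 ± 0.47 (SE; adjusted p = 0.9). Of 17 integrin genes tested, Itgae was the only one called in this comparison (5.9%, beside 0.708% of all features). Smad7 and Itgb8 had no probe with their name.

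Mmp12, the macrophage elastase, was lower with TGFb1. It read 2.66, 2.7, 2.69, 1.89 and 1.37 in the TGFb1 group and 4.24, 4.8, 5.88, 4.11 and 3.81 in beta6 null. The highest TGFb1 array lay below the lowest beta6 null array, and the difference was -2.31 ± 0.40 (SE; adjusted p = 0.02), a 4.96-fold fall. In wild type it read 0.33, 0.54, 0.15 and 0.03 on the 4 arrays with a value. The TGFb1 arrays thus lay between those of the other groups, without overlap with either. Against wild type, the difference was 2.0 and did not pass (adjusted p = 0.578). The Mmp12 call was lost when only the 10 arrays were fitted (adjusted p = 0.0504) and with equal spread, where the difference was -1.22 (adjusted p = 0.268). It was also lost with quantile normalization (limma adjusted p = 0.0748) and with Xist in the model (0.507). The same held without beta6 null replicate 2 (0.0543), without TGFb1 replicate 4 (0.0743), and without TGFb1 replicate 5 and beta6 null replicate 4 together (0.0619). The adjusted p of Mmp12 ran from 0.00496 to 0.507 over the 29 alternatives in which it was fitted, and it was called in 22. Of 25 metalloproteinases and their inhibitors tested, Mmp12 alone was called (4%, beside 0.708% of all features), and the list had a median of -0.50. Mmp19, with the next smallest p, differed by -1.15 ± 0.32 (SE; adjusted p = 0.104) and its groups did not overlap.

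Lysosomal and secreted proteins made up several of the other falls. Plbd1, a lysosomal hydrolase related to phospholipase B, read 1.0, 0.96, -0.31, -0.80 and 0.01 in the TGFb1 group and 3.66, 3.82, 4.6, 3.27 and 2.94 in beta6 null. The groups were separated by nearly 2 log2 units, and the difference of -3.49 ± 0.43 (SE; adjusted p = 0.00213) had the smallest p of any fall. Igf2r, the mannose 6-phosphate receptor that carries enzymes to lysosomes and also binds latent TGFb, read 0.16, -0.03, 0.83, 0.44 and 1.04 in the TGFb1 group and 3.29, 4.34, 2.78, 1.73 and 2.5 in beta6 null, a difference of -2.44 ± 0.43 (SE; adjusted p = 0.0288). Spg11, which encodes spatacsin, a protein of lysosome renewal, read -0.44, -0.48, -0.76, 0.09 and 0.07 in the TGFb1 group and 1.57, 0.64, 2.34, 0.92 and 1.03 in beta6 null and fell 3.04-fold (-1.6 ± 0.33 (SE; adjusted p = 0.0426)). Of 40 cathepsins and lysosomal hydrolases, these 2, Plbd1 and Igf2r, were lower and 0 higher (5% called, beside 0.708% of all features), with a median of -0.03. With quantile normalization and with equal spread 1 of the 40 was called in each. Wfdc18, a small secreted protein with a protease inhibitor fold, read 1.21, 0.53, -0.14, -0.13 and -0.72 in the TGFb1 group and 2.69, 3.24, 2.6, 1.91 and 2.61 in beta6 null. TGFb1 replicate 1 was the highest of its group and still lay below all beta6 null arrays, and the difference was -2.46 ± 0.39 (SE; adjusted p = 0.008). On the list of 19 protease inhibitors, Wfdc18 fell and Serpinb1a, an inhibitor of neutrophil proteases, rose by 1.42 ± 0.29 (SE; adjusted p = 0.0388). That is 10.5% called, beside 0.708% of all features. With quantile normalization 1 of the 19 was called, and with equal spread 0.

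The carrier of retinol in plasma, Rbp4, had the largest fall among genes measured on at least 4 arrays of both groups. It read 3.2, 2.07, 0.00, -0.30 and 0.34 in the TGFb1 group and 5.9, 4.74, 5.12, 3.9 and 3.47 in beta6 null. TGFb1 replicates 1 and 2 lay well above the other 3 arrays of their group, and replicate 1 came within 0.3 of the lowest beta6 null array. The difference was -3.57 ± 0.62 (SE; adjusted p = 0.0192). Hal, histidine ammonia-lyase, which breaks down histidine, read 1.57, 1.16, 1.05, 0.67 and -0.66 in the TGFb1 group and 3.17, 3.06, 4.18, 3.48 and 3.1 in beta6 null, a difference of -2.64 ± 0.40 (SE; adjusted p = 0.00638). Fabp5, a fatty acid-binding protein of macrophages, had the smallest called fall and the tightest groups. It read 0.29, 0.35, 0.49, 0.68 and 0.40 in the TGFb1 group and 1.32, 1.7, 1.75, 1.88 and 1.4 in beta6 null, a difference of -1.17 ± 0.23 (SE; adjusted p = 0.0332).

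Membrane and cytoskeletal proteins formed another group of falls. Marcks, a kinase substrate that ties actin to the plasma membrane, read 2.51, 2.66, -0.02, 0.01 and 1.49 in the TGFb1 group and 3.5, 4.46, 4.23, 3.85 and 3.26 in beta6 null, a difference of -2.53 ± 0.51 (SE; adjusted p = 0.0356), and its 2 probes gave -2.52 and -2.54. As with Rbp4, TGFb1 replicates 1 and 2 were the highest of their group. Basp1, a membrane protein of the same kind, read -1.25, -0.99, -0.66, -0.60 and -0.73 in the TGFb1 group and 0.02, 1.55, 1.34, 1.51 and 0.92 in beta6 null. Beta6 null replicate 1 lay lowest in its group, and the difference was -1.91 ± 0.29 (SE; adjusted p = 0.00673). Aif1, the macrophage actin-bundling protein also called Iba1, read -0.79, 0.58, -0.66, -2.51 and 0.46 in the TGFb1 group and 3.32, 3.07, 2.38, 1.9 and 2.41 in beta6 null. Here TGFb1 replicate 4 was the lowest array, and the difference was -3.2 ± 0.62 (SE; adjusted p = 0.0332). Of 52 genes of actin, adhesion and migration tested, these 3 fell and 0 rose, and the list's median was 0.05. That is 5.8% called, beside 0.708% of all features. With quantile normalization and with equal spread 1 of the 52 was called in each. Plxnb2, a semaphorin receptor, read -0.52, -0.42, -0.27, -0.46 and -0.80 in the TGFb1 group and 3.06, 1.6, 1.15, 1.39 and 0.61 in beta6 null and fell 4.16-fold (-2.06 ± 0.39 (SE; adjusted p = 0.0332)). Its TGFb1 values were among the tightest of any fall, and beta6 null replicate 1 stood highest.

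Cell surface and signalling proteins completed the falls. Dpp4, the surface peptidase CD26, read 0.80, 0.27, -1.16, -0.39 and 1.34 in the TGFb1 group and 3.95, 3.23, 3.52 and 2.96 in the 4 beta6 null arrays with a value, a difference of -3.25 ± 0.62 (SE; adjusted p = 0.0337). Lat2, an adaptor of immunoreceptor signalling, read 2.88, 2.78, 0.63, 0.75 and 0.13 in the TGFb1 group and 6.09, 4.59, 5.47, 3.83 and 2.72 in beta6 null. TGFb1 replicates 1 and 2 lay above beta6 null replicate 5, so the groups overlapped, and the difference was -3.1 ± 0.64 (SE; adjusted p = 0.0397). Of 43 immunoreceptor adaptors and Src family kinases tested, Lat2 was the only one called (2.3%, beside 0.708% of all features). Dnmt3a, a DNA methyltransferase that sets new methylation, read 0.00, 0.68, 0.28, 0.34 and 0.68 in the TGFb1 group and 2.34, 3.29, 2.93, 1.64 and 1.45 in beta6 null, a difference of -1.93 ± 0.37 (SE; adjusted p = 0.0332). St8sia4, which builds polysialic acid on surface proteins, read 0.81, 1.09, 0.29, -0.07 and 0.46 in the TGFb1 group and 2.26, 2.09, 2.91, 2.97 and 1.66 in beta6 null and differed by -1.86 ± 0.38 (SE; adjusted p = 0.0356). In neither gene did the groups overlap. Over the 16 falls with 5 values in the TGFb1 group, replicates 1 and 2 were the 2 arrays nearest to beta6 null in 7. Over the 76 rises with 5 values this was so in 8, and replicate 5 alone was nearest in 35.

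**Figure D3:**
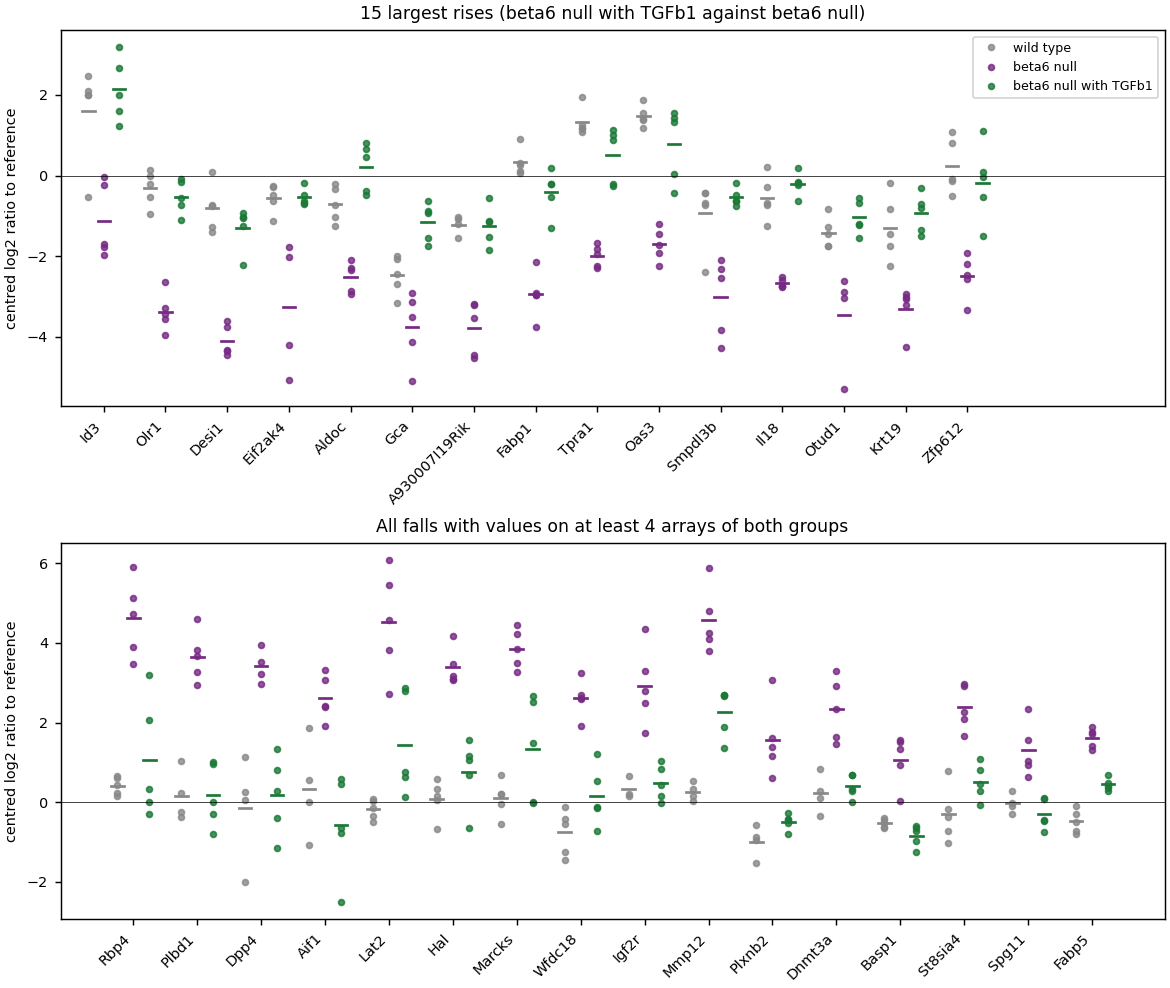
Centred log2 ratio to the reference (y axis) on each array of wild type (grey), beta6 null (purple) and beta6 null with TGFb1 (green) for the 15 largest rises (top) and the 16 falls measured on at least 4 arrays of both groups (bottom); short lines are group means. Green and purple points do not overlap for any gene shown except Lat2.

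Genes that mark alveolar macrophages made up part of the rises. Olr1, a scavenger receptor for oxidised lipoproteins, read -0.56, -1.1, -0.16, -0.08 and -0.74 in the TGFb1 group and -3.55, -2.65, -3.28, -3.96 and -3.42 in beta6 null. The groups lay over 1.5 log2 units apart, and the difference of 2.84 ± 0.31 (SE; adjusted p = 0.00114) had the smallest p of all named genes. Fabp1, a fatty acid-binding protein better known from liver, read 0.19, -0.22, -0.20, -0.54 and -1.3 in the TGFb1 group and -2.14, -2.95, -3.76, -2.95 and -2.92 in beta6 null, with TGFb1 replicate 5 the lowest of its group and a difference of 2.53 ± 0.34 (SE; adjusted p = 0.00276). Il18, a cytokine of the interleukin-1 family, read 0.20, -0.19, -0.15, -0.24 and -0.63 in the TGFb1 group and -2.51, -2.74, -2.58, -2.74 and -2.76 in beta6 null. Its beta6 null values spanned only 0.25, and the difference was 2.46 ± 0.28 (SE; adjusted p = 0.00114). Krt19, a keratin that marks epithelium and is also on the list of alveolar macrophage genes, read -0.80, -1.34, -0.31, -0.70 and -1.5 in the TGFb1 group and -2.94, -3.06, -4.25, -3.22 and -3.02 in beta6 null, a difference of 2.37 ± 0.40 (SE; adjusted p = 0.016). Pparg read -1.65, -1.77, -1.18, -1.23 and -1.97 in the TGFb1 group and -4.26, -3.33, -3.02, -3.27 and -3.14 in beta6 null, a rise of 1.84 ± 0.35 (SE; adjusted p = 0.0332) or 3.59-fold. The difference was 1.01 with equal spread (adjusted p = 0.347) and 1.09 with quantile normalization (adjusted p = 0.31), so the call was lost under both. Over all 31 alternatives its adjusted p ran from 0.00619 to 0.492, and it was called in 19. All 10 arrays were below the reference for Pparg.

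Of the 34 genes tested on the list of alveolar macrophage identity, 5 rose (Olr1, Fabp1, Il18, Krt19 and Pparg), Fabp5 fell and 28 were not called. That is 17.6% called, beside 0.708% of all features, on a list that was put together with earlier results of these data known. The median difference was 0.77, beside 0.12 for all features, and 27 of 34 lay above 0 (79.4%, beside 56.7%). The median stayed above 0 under each scaling tried. With quantile normalization and with equal spread, 0 of the 34 were called. The median of the list on an array ran from -0.63 to -0.13 in the TGFb1 group and from -1.45 to -0.97 in beta6 null. Several defining markers were higher without passing: Siglecf, the sialic acid-binding lectin used to identify these cells, by 1.81 ± 0.64 (SE; adjusted p = 0.206), Car4, a carbonic anhydrase, by 1.62 ± 0.74 (SE; adjusted p = 0.32), and Lpl, lipoprotein lipase, by 1.43 ± 0.47 (SE; adjusted p = 0.162). The surface receptor Marco differed by 0.00 ± 0.55 (SE; adjusted p = 0.998). Ctsk, an elastin- and collagen-degrading cathepsin, lay lowest of the list at -1.57 ± 0.46 (SE; adjusted p = 0.122). In bulk samples, fewer cells of a type and less RNA per cell cannot be told apart.

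Lipid handling overlapped with that list. Of 41 genes of lipid uptake, storage and efflux tested, Olr1, Fabp1, Stard4 and Pparg rose and Fabp5 fell (12.2% called, beside 0.708%), with a median of 0.30. Of these calls only Stard4 was not already counted on the alveolar macrophage list. Both lists were put together with earlier results of these data known, so the share is only a description. With quantile normalization and with equal spread 0 of the 41 were called. Stard4, a carrier of cholesterol between membranes, read 0.27, -0.41, 0.43, 0.19 and -0.18 in the TGFb1 group and -2.12, -2.1, -2.11, -2.3 and -2.21 in beta6 null. Its beta6 null values lay within 0.2 of each other, and the difference was 2.23 ± 0.32 (SE; adjusted p = 0.00492). Smpdl3b, a membrane phosphodiesterase related to sphingomyelinases, read -0.18, -0.76, -0.62, -0.63 and -0.49 in the TGFb1 group and -3.82, -2.53, -4.27, -2.09 and -2.32 in beta6 null, with beta6 null replicates 1 and 3 far below the others, and rose by 2.47 ± 0.46 (SE; adjusted p = 0.0301). Pnpla8, a phospholipase of mitochondria and peroxisomes, rose by 1.98 ± 0.37 (SE; adjusted p = 0.0301). None of 29 genes of cholesterol and fatty acid synthesis was called by limma, and their median was 0.37. Of the 29, 10 had an unadjusted p under 0.05, 9 of them higher, beside 15% of all features. Msmo1, a sterol oxidase, differed by 1.33 ± 0.41 and Scd1, a fatty acid desaturase, by -1.87 ± 0.60, and neither passed (adjusted p = 0.144 and 0.162). None of 33 genes of fatty acid oxidation was called either (9 had an unadjusted p under 0.05, all higher, beside 15% of all features). Acaa1a, a peroxisomal thiolase, came closest, at 1.4 ± 0.31 (SE; adjusted p = 0.0521), and its groups did not overlap.

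The called innate immune genes named here were higher with TGFb1, while the list of complement, Fc and pattern receptors went both ways. Of 43 complement, Fc and pattern receptor genes tested, Olr1, Axl, Cfb and Tlr2 rose and 0 fell (9.3% called, beside 0.708%). This list too was put together with earlier results of these data known. Its median was 0.17, beside 0.117 for all features, with 27 genes above 0, 16 below and the lowest at -2.44. At an unadjusted limma p under 0.05, 12 were higher and 4 lower, beside 15% of all features. With quantile normalization or equal spread 0 were called. Tlr2, the receptor for bacterial lipoproteins, read 0.57, 0.07, 0.14, -0.02 and -1.17 in the TGFb1 group and -1.98, -1.64, -1.8, -2.01 and -1.98 in beta6 null. TGFb1 replicate 5 lay far below its group and still above the beta6 null arrays, and the difference was 1.8 ± 0.36 (SE; adjusted p = 0.0337). Cfb, factor B of the alternative complement pathway, rose by 1.8 ± 0.27 (SE; adjusted p = 0.00588). Cd302, a C-type lectin receptor, rose by 1.73 ± 0.26 (SE; adjusted p = 0.00621), and Pilra, an inhibitory receptor, by 1.67 ± 0.32 (SE; adjusted p = 0.0332). Oas3, an interferon-induced sensor of double-stranded RNA, read -0.42, 1.44, 1.32, 1.56 and 0.04 in the TGFb1 group and -1.45, -2.24, -1.92, -1.72 and -1.21 in beta6 null. TGFb1 replicates 1 and 5 lay lower than the other 3 arrays, and the difference was 2.49 ± 0.39 (SE; adjusted p = 0.00673). It was the only call among 40 interferon-induced genes (2.5%, beside 0.708%), whose median was 0.02 and turned to -0.12 with quantile normalization. Ifitm3, another gene of that list, was lower at -2.0 ± 0.55 (SE; adjusted p = 0.104) without passing.

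None of 45 chemokines and their receptors was called by limma. Of these, 34 lay below 0, 6 with an unadjusted p under 0.05 (0 above 0), beside 15% of all features in either direction. The median was -0.47 under the reported scaling and negative under each other one. Ccl5 differed by -1.29 ± 0.35 (SE; adjusted p = 0.104) and its groups did not overlap, and Ccl9 by -1.53 ± 0.43 (SE; adjusted p = 0.106). Among 66 cytokines and their receptors Il18 was the only call (1.5%, beside 0.708% of all features). None of 17 genes of MHC class I and antigen processing passed, although 15 lay above 0 (88.2%, beside 56.7% of all features), with a median of 0.42. Of the 17, 4 had an unadjusted p under 0.05, beside 15% of all features. In class II, H2-Ea at -1.72 ± 0.41 (SE; adjusted p = 0.0753) and H2-DMb1, a subunit of the peptide editor, at 1.36 ± 0.40 (SE; adjusted p = 0.121) went opposite ways. There 0 of 19 genes passed (4 had an unadjusted p under 0.05, beside 15% of all features).

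Other large rises were of diverse function. Desi1, a peptidase that removes SUMO, read -0.93, -1.26, -1.02, -1.06 and -2.21 in the TGFb1 group and -4.35, -3.76, -4.33, -3.61 and -4.45 in beta6 null, with TGFb1 replicate 5 well below its group, and rose by 2.81 ± 0.34 (SE; adjusted p = 0.00153). Eif2ak4, the kinase Gcn2 that senses amino acid shortage, read -0.48, -0.64, -0.19, -0.68 and -0.70 in the TGFb1 group and -4.19, -5.06, -2.02 and -1.77 in the 4 beta6 null arrays with a value. The beta6 null arrays spread over 3 log2 units, and the difference was 2.72 ± 0.56 (SE; adjusted p = 0.0427). Of 31 genes of the integrated stress response and amino acid synthesis, Eif2ak4 was the only call (3.2%, beside 0.708% of all features). Aldoc, an aldolase of glycolysis, read -0.37, -0.49, 0.46, 0.81 and 0.67 in the TGFb1 group and -2.09, -2.87, -2.93, -2.35 and -2.29 in beta6 null, a rise of 2.72 ± 0.33 (SE; adjusted p = 0.00153). It was the only call among 29 genes of glycolysis and pyruvate metabolism (3.4%, beside 0.708% of all features). Gca, the calcium-binding protein grancalcin, read -0.94, -0.64, -1.55, -0.87 and -1.75 in the TGFb1 group and -2.91, -5.1, -3.13, -4.13 and -3.5 in beta6 null, a rise of 2.6 ± 0.41 (SE; adjusted p = 0.00776).

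Tpra1, a membrane protein of the adipocyte lineage, read -0.22, 1.0, 0.88, 1.13 and -0.25 in the TGFb1 group and -2.25, -2.28, -1.81, -1.95 and -1.67 in beta6 null. TGFb1 replicates 1 and 5 lay lower than the other 3, as for Oas3, and the difference was 2.5 ± 0.33 (SE; adjusted p = 0.00213). A930007I19Rik, a gene named only by its clone, read -1.16, -0.56, -1.13, -1.52 and -1.85 in the TGFb1 group and -4.46, -3.53, -4.53, -3.18 and -3.2 in beta6 null, a rise of 2.53 ± 0.34 (SE; adjusted p = 0.00468). Otud1, a deubiquitinase, read -1.54, -0.67, -0.55, -1.2 and -1.23 in the TGFb1 group and -2.89, -5.3, -3.04 and -2.62 in the 4 beta6 null arrays with a value, where beta6 null replicate 3 stood far below the rest, and rose by 2.42 ± 0.48 (SE; adjusted p = 0.0356). Zfp612, a zinc finger protein, read 1.11, -0.54, 0.09, -0.03 and -1.51 in the TGFb1 group and -3.33, -2.56, -1.93, -2.47 and -2.2 in beta6 null. The TGFb1 arrays spread over 2.6 log2 units without reaching the beta6 null arrays, and the difference was 2.32 ± 0.46 (SE; adjusted p = 0.0332). Hcfc1 and Apoh had larger differences, 3.72 ± 0.73 and 3.5 ± 0.54, but values on only 3 beta6 null arrays each.

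Nuclear and growth-related genes were also among the rises. Noct, the deadenylase-related clock output gene Nocturnin, read 0.38, -0.25, 0.24, 0.12 and 0.13 in the TGFb1 group and -1.11, -1.72, -1.28, -1.08 and -1.07 in beta6 null, and the difference was 1.38 ± 0.24 (SE; adjusted p = 0.02). It was the only call among 16 circadian clock genes (6.25%, beside 0.708% of all features). Of the 16, 12 lay above 0 (75%, beside 56.7% of all features). In 4 the TGFb1 group lay wholly above beta6 null (25%, beside 6.36% of all features). Of 59 genes of the G1 to S transition and DNA replication tested, Ccnd2, a D-type cyclin (2.0 ± 0.40 (SE; adjusted p = 0.0351)), and Rpa1 and Rpa2, subunits of the single-stranded DNA-binding complex (1.35 ± 0.28 and 2.0 ± 0.40), rose, and 0 fell. That is 5.1% called, beside 0.708% of all features. With quantile normalization and with equal spread 0 of the 59 were called. Of the 15 fits that left out an array, 6 called Ccnd2, 3 called Rpa1 and 6 called Rpa2. In the G2 and mitosis list Cdk1, the mitotic kinase, rose by 1.52 ± 0.33 (SE; adjusted p = 0.0438), alone among 47 (2.1%, beside 0.708% of all features). Cks1b, a partner of Cdk1, came close at 1.58 ± 0.35 (SE; adjusted p = 0.0524). With quantile normalization or equal spread 0 of the 47 were called. The medians of the 2 lists were 0.47 and 0.36. Gadd45g, a growth arrest gene, rose by 1.5 ± 0.32 (SE; adjusted p = 0.0436) and Fmr1, an RNA-binding regulator of translation, by 2.0 ± 0.29 (SE; adjusted p = 0.00588). Fmr1 read 0.81, 0.58, 0.57, 0.56 and 0.76 in the TGFb1 group and -1.23, -1.7, -0.97, -1.27 and -1.55 in beta6 null, with both groups tight.

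Lists of housekeeping complexes lay above the median of all features with few calls. Of 61 subunits of oxidative phosphorylation 48 lay above 0 (78.7%, beside 56.7% of all features). In 14 the TGFb1 group lay wholly above beta6 null (22.9%, beside 6.36%). Atp5pb, an ATP synthase subunit, was the only call (1.62 ± 0.34 (SE; adjusted p = 0.0426)). That is 1.6% called, beside 0.708% of all features. The median of the list was 0.49. The 43 proteasome subunits had a median of 0.50 with 36 above 0 (83.7%). The 57 cytosolic ribosomal proteins had a median of 0.37 with 44 above 0 (77.2%, beside 56.7% of all features). By limma 0 subunits of either complex were called, with 14 and 12 at an unadjusted p under 0.05, beside 15% of all features. Psmd6, a regulatory subunit of the proteasome, differed by 1.6 ± 0.36 (SE; adjusted p = 0.0596). Of 40 genes of oxidative stress and glutathione 34 lay above 0 (85%, beside 56.7% of all features). Again 0 were called (6 had an unadjusted p under 0.05, beside 15% of all features). Hmox1, the heme-degrading oxygenase, differed by 1.17 ± 0.28 (SE; adjusted p = 0.073). Among 59 genes of autophagy and vesicle traffic, Snx10, a sorting nexin of endosomes, rose by 1.71 ± 0.30 (SE; adjusted p = 0.0196). Snx10 was the only call of that list (1.7%, beside 0.708% of all features). The medians of all 5 lists stayed above 0 with quantile normalization and with equal spread. Beta6 null replicates 1, 2 and 3 also had wider values than any TGFb1 array, and the part of that spread in these shifts was not tested.

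**Figure D4:**
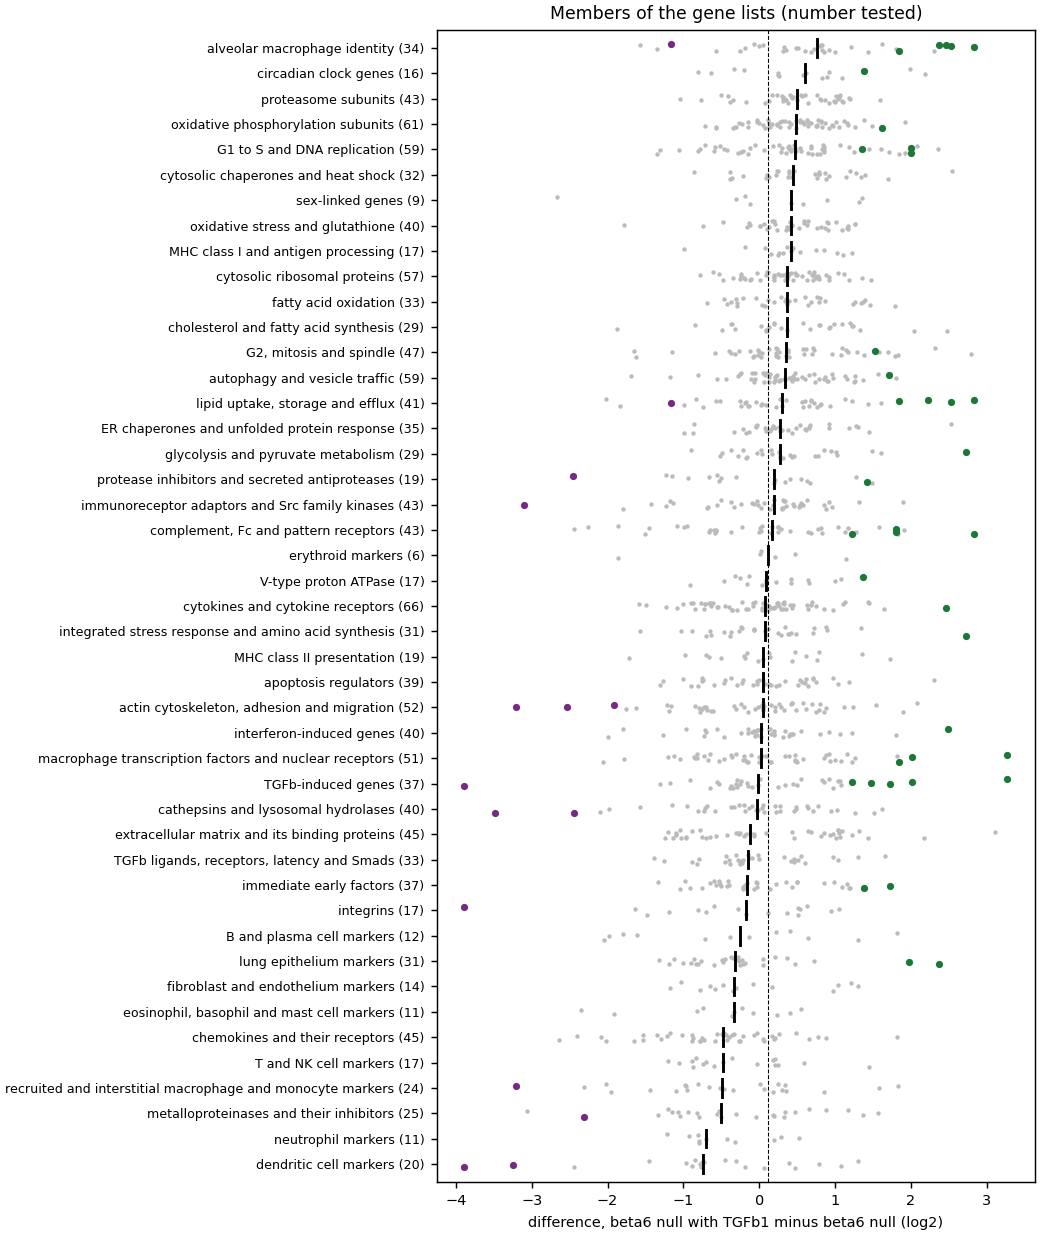
Differences between the TGFb1 group and beta6 null (log2, x axis) for the tested members of each of the gene lists, ordered by list median (black bar), with called rises in green, called falls in purple and the median of all features (0.117) as a dashed line. Alveolar macrophage identity lies highest (0.768) and dendritic cell markers lowest (-0.74).

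Markers of other cells that a lavage can hold were given beside these results. Of 24 genes of recruited or interstitial macrophages and monocytes tested, Aif1 fell and 0 rose (4.2% called, beside 0.708% of all features), with a median of -0.49. The median of the list on an array ran from -0.25 to 0.54 in the TGFb1 group and from 0.00 to 1.66 in beta6 null. Ccr2, the receptor that brings monocytes into tissue, differed by -2.02 ± 0.78 (SE; adjusted p = 0.241), Ly6c1, a surface marker of monocytes and endothelium, by -2.31 ± 0.92 (SE; adjusted p = 0.253) and Cd14, the endotoxin coreceptor, by 1.58 ± 0.52 (SE; adjusted p = 0.165). None of these 3 passed. Of 20 dendritic cell markers Itgae and Dpp4 fell and 0 rose (10% called, beside 0.708% of all features), with a median of -0.74. On the arrays that list ran from -0.21 to 0.73 in the TGFb1 group and from 0.37 to 1.02 in beta6 null. On both lists 0 genes were called with quantile normalization or with equal spread. Neutrophil (11 tested), T and NK (17), B and plasma cell (12), and eosinophil, basophil and mast cell markers (11) had medians of -0.70, -0.47, -0.26 and -0.34. By limma 0 of these passed, with 1, 3, 6 and 2 at an unadjusted p under 0.05, beside 15% of all features. S100a8, a neutrophil protein, differed by -0.93 ± 0.29 (SE; adjusted p = 0.154) and Ighm, the immunoglobulin heavy chain, by -1.99 ± 0.57 (SE; adjusted p = 0.116). On the same B and plasma cell list Xbp1, a factor of secretory cells in general, differed the other way by 1.3 ± 0.32 (SE; adjusted p = 0.0772).

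Of 31 lung epithelium markers 23 lay below 0 and the median was -0.33, but the adhesion molecule Epcam rose together with Krt19. That is 6.5% called, beside 0.708% of all features. Epcam read -1.45, -2.15, -0.25, -0.30 and -0.70 in the TGFb1 group and -2.64, -2.85, -2.81, -3.31 and -3.12 in beta6 null, a difference of 1.98 ± 0.42 (SE; adjusted p = 0.0442). The club cell protein Scgb1a1 differed by 0.21 ± 0.74 (SE; adjusted p = 0.925) and surfactant protein Sftpc by -0.33 ± 0.47 (SE; adjusted p = 0.799). Because values are ratios to a reference, 0 does not mean absence, and whether other cells entered any change was not tested. None of 14 fibroblast and endothelium markers or 6 erythroid markers passed by limma (3 and 1 had an unadjusted p under 0.05, beside 15% of all features).

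Xist is the RNA that coats the silenced X chromosome in female cells. It read -3.01, -3.48, -3.17, -3.44 and -2.27 in the TGFb1 group and -1.45, 0.22, 0.79, -2.46 and 0.88 in beta6 null, and -4.14, -2.62, -3.46, -2.37 and -2.89 in wild type. Beta6 null replicates 2, 3 and 5 stood above 0, replicates 1 and 4 lay lower, and replicate 4 overlapped the TGFb1 group. The difference was -2.67 ± 0.59 (SE; adjusted p = 0.0524). The Y-linked Eif2s3y read -1.16, -1.05, -0.36, 0.32 and -0.13 in the TGFb1 group and -2.5, -3.75, -1.04, -0.80 and -0.88 in beta6 null, a difference of 1.32 ± 0.59 (SE; adjusted p = 0.312). Uty, also Y-linked, had values on only 3 beta6 null arrays, with none on replicates 1 and 2, and differed by 0.43 ± 0.60 (SE; adjusted p = 0.793). Kdm5d, another Y-linked gene, read -1.67, -0.41, -0.61, 2.39 and 0.91 in beta6 null. It had values on only 2 TGFb1 arrays (1.58 and -0.34) and 2 wild type arrays (1.1 and 0.12), so it was not tested. With the Xist level of each array in the model 0 features were called. Over all features, 1096 then had an unadjusted limma p under 0.05, against 1986 without Xist in the model. For the 94, the median ratio of these differences to those reported was 0.97, and 92 kept an unadjusted p under 0.05. The 94 were chosen as called on the same arrays, so these 2 values are only a description. The typical error of the 94 was larger with Xist in the model (median SE 0.544, against 0.336). On beta6 null replicate 4, whose Xist was nearest to the TGFb1 group, the median of the 77 called rises was -2.31, within the range of the other beta6 null arrays (-2.51 to -2.14), but these features were chosen on the same arrays. The median of the 17 falls there was 1.91, the lowest of that group. The part of Xist, or of the sex of the animals, in the results was not tested.

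The array titles end in 1 or 2, with no meaning given. The TGFb1 group had 3 arrays ending in 1 and 2 in 2, and beta6 null had 4 and 1. With this suffix as a block 42 features were called, 41 of them among the 94, and Mmp12, Id3, Olr1 and Il18 were still called while Pparg was not (adjusted p = 0.0568). The called rises had a median difference of 1.92 among arrays ending in 1 and 1.44 among those ending in 2, and Mmp12 differed by -2.33 and -1.8. The values for arrays ending in 2 rest on 1 beta6 null array. These features were chosen as called on the same arrays, so these differences are only a description. A fit on arrays ending in 1 alone called 4 features, all higher.

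Wild type values give the scale of these changes. Against wild type, 0 features were called in the TGFb1 group by limma, with 833 (6.28%) at an unadjusted p under 0.05, beside 1986 (15%) against beta6 null. The smallest adjusted p was 0.276, which does not show that the groups are alike. This comparison shares the TGFb1 arrays with the other, and wild type replicate 2 had the widest values. Olr1 read -0.52, -0.21, -0.01, -0.96 and 0.13 in wild type, and its mean in the TGFb1 group differed from that by -0.22 (adjusted p = 0.92). Id3 read 2.46, -0.53, 1.99, 2.09 and 1.99, with replicate 2 far below the others. Pparg read -2.38, -3.11, -1.63, -2.7 and -1.46, lower than the TGFb1 group by 0.70 on average (adjusted p = 0.812). Fabp5 read -0.74, -0.49, -0.09, -0.80 and -0.30, and lay 0.93 below the TGFb1 group (adjusted p = 0.651). For Noct the wild type arrays read 1.07, 1.2, 1.71, 0.88 and 1.47, all above the TGFb1 group (difference -1.14, adjusted p = 0.578).

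Detection was compared by the arrays with a value. There were 52 features with values on at least 4 TGFb1 arrays and at most 1 beta6 null array, and 105 the other way round. No feature had values on all 5 TGFb1 arrays and on 0 beta6 null arrays, and 2 had values on all 5 beta6 null arrays and on 0 TGFb1 arrays. These were Rftn2, a raft-associated protein, with a mean of 0.43 ± 1.37 (SD, n = 5) in beta6 null, and Sez6l2, a membrane protein of neurons, with 1.25 ± 1.77 (SD, n = 5). Each had values on 3 wild type arrays. A missing value can stem from a spot that was removed, so no fold is given. Placed by the order of measured genes on the chromosomes, the 84 called genes formed 2 adjacent pairs, Wrnip1 with Serpinb1a and Smpdl3b with Rpa2, all of them higher.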

How the data were processed

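Per the labels, total RNA of 15 alveolar macrophage samples was hybridised on spotted 2-colour arrays with a macrophage reference in channel 1. The authors deposited 1 log ratio per probe and array, taken here as log2. The steps by which they made these log2 values (scanner, dyes, background, normalization) are not given in the sources used here. Base 2 and the direction of the ratio are inferred, and with another base every fold would change but no sign or test.

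Of 17225 probes, 30 control spots were left out. Symbols came from the platform annotation, updated by Entrez ID through a RefSeq table of GRCm38.p6, and probes of a gene were averaged. Arrays were centred on their medians. Features measured on 3 or more arrays in each group were fitted with 3 group means over all 15 arrays (limma 3.58.1, R 4.3.3, lmFit and eBayes), with Benjamini-Hochberg adjustment over all features. The threshold was 0.05. Errors of differences are standard errors of the fit. Precision is limited by how many arrays there are. The steps were tested on simulated data in which each gene had the same spread on every array. The real arrays differed in spread, so that test could not show what unequal spread does to the calls.

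The comparison, the gene lists and the rule for named genes were chosen with earlier results of these data known. The rule allowed every called gene, and gave in full the 15 largest rises and all falls where both groups had 4 or more arrays with a value. It limited lists to 4 called members each, and added the 2 smallest p of a list without calls, features with values on all 5 arrays of one group and none of the other, and Tgfb1, Itgb6, Mmp12, Pparg, Tgfbr1, Tgfbr2, Smad7 and Xist; 1 further gene of the rule is not reported here. Not all genes it allowed are named, and which ones are was chosen after their values were seen. Id2, Tgfbi, Junb, Cdkn1a, Itgav, Siglecf, Car4, Lpl, Marco, Ctsk, Mmp19, Ifitm3, Cks1b, Cd14, Ccr2, Ly6c1, Scgb1a1, Sftpc, Eif2s3y, Uty and Kdm5d fall outside the rule. Alternatives covered the filter, the scaling, the averaging of probes, array weights, the title suffix, Xist and leaving out each array. The fit on arrays of title suffix 1 was chosen after seeing the data.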

Additional observations from a re-analysis of the deposited data

Results flagged for a closer look

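In 31 named genes, 62 groups of 4 or 5 values were examined for a sample far from the others (Dixon's test at the 95% level), and 3 stood out, which is about what chance gives at 1 in 20 groups. Desi1 read -2.21 on TGFb1 replicate 5, against -1.26 to -0.93 on the other TGFb1 arrays, and this array still lay above every beta6 null array. Otud1 read -5.3 on beta6 null replicate 3, against -3.04 to -2.62 on the other 3 beta6 null arrays with a value. Krt19 read -4.25 on the same array, against -3.22 to -2.94 on the others. The causes were not tested.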

How the results depend on the processing

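All 94 called features kept their direction under each of the 31 alternatives in which they could be fitted, a description of features chosen as called, but their number did not hold. The comparison with beta6 null gave 142 called features when each group had to have 4 arrays with a value, 220 when all 15 had one, 15 with quantile normalization, 11 with equal spread of the arrays, 621 with array weights, 42 with the title suffix as a block and 30 without TGFb1 replicate 5 and beta6 null replicate 4, whose title numbers stand apart. It gave 0 with Xist as a covariate, 321 without both beta6 null replicate 1 and wild type replicate 2, and 4 on the arrays of title suffix 1. Leaving out 1 array gave 23 (without TGFb1 replicate 4) to 318 (without wild type replicate 2). The count was 24 without TGFb1 replicate 3, 40 without TGFb1 replicate 1, 49 without TGFb1 replicate 2, 38 without beta6 null replicate 2 and 52 without beta6 null replicate 4. The filters test fewer features; the other causes were not tested. Against wild type, 0 became 1 with only the 10 arrays fitted and with array weights, and 0 to 1 when 1 array was left out. The 8 genes called under both quantile normalization and equal spread were Aldoc, Basp1, Eif2ak4, Fmr1, Id1, Plbd1, Plxnb2 and Tpra1. Of the 84 called genes with a symbol, 30 were called in no more than 7 of the 15 fits that left out an array. No paired analysis was possible because the labels carry no replicate numbers shared between groups.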
